A study of Mus musculus with 5 samples.

Results

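The Reg family is a group of small secreted C-type lectins, and 5 of its genes were followed here: Reg3b, Reg3g, Reg3a, Reg1 and Reg4. They were taken by symbol from the gene table of the deposited matrices, where they are 5 of 27998 gene rows. The table holds 2 further family genes, Reg2 and Reg3d, which were too low to follow: Reg2 had 4 UMIs and Reg3d 53 UMIs in 11287 enterocyte-like cells.

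The proteins of the Reg3 group are released into the gut lumen, where REG3G and REG3B bind bacterial surfaces and help to keep bacteria away from the epithelium. Their expression in the small intestine is known to depend on the microbiota and on cytokine signals, IL-22 acting through STAT3 among them. Reg1 is best known from regenerating pancreas and from proliferating gut epithelium, and Reg4 is known as a marker of secretory cells, enteroendocrine and Paneth cells among them.

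Droplet single-cell RNA sequencing was done on ileal epithelium, from the distal end of the small intestine. The animals were C57BL/6 mice, 8 to 12 weeks old, in 2 surgical groups: sham surgery (3 libraries, sham 1 to 3) and small bowel resection, in which part of the gut is cut out (2 libraries, resection 1 and 2). No transgene or deletion is named in the labels, nor the time after surgery, and the labels do not say whether a library is 1 mouse or a pool. The p-values below therefore measure only the spread between these libraries.

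The deposited matrices held 1402 to 7233 cells and 11749028 to 41281731 UMIs (unique molecular identifiers, each standing for 1 captured transcript) per library. After filtering, 18235 of 19404 cells were kept, in 20 clusters named from marker genes: 11287 enterocyte-like, 3023 immature enterocyte-like, 1546 cycling-like (called crypt-like here, since no separate stem cell cluster formed), 1074 Paneth-like, 711 goblet-like and 318 T cell-like cells, with 276 cells in 1 unnamed cluster. No enteroendocrine or tuft cluster formed. Between 6 and 47 cell barcodes were shared by any pair of libraries. Sham 1 and resection 1 (set A) stood apart from sham 2, sham 3 and resection 2 (set B): the crypt-like clusters of the sets overlapped by at most 1.41%, and those within a set by at least 98.6%. Enterocyte-like clusters were largely specific to a library: sham 1 and resection 1 overlapped by 2.15%, libraries of different sets by 2.23 to 3.58% and those of set B by 15.8 to 34.2%. In immature enterocyte-like cells set B was not uniform either. There sham 2 overlapped sham 3 by 3.45% and resection 2 by 5.68%, while sham 3 and resection 2 overlapped by 97.7%. Set A also had the higher median mitochondrial shares, 13.3% in sham 1 and 11.6% in resection 1 against 7.22 to 9.10% in set B. What the sets stand for is not given in the sources used here, so differences between groups are given within sets as well.

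Of the 5 members, 4 lie together on chromosome 6, in a span of 98.2 kb (chr6:78370657-78468872, GRCm38) that also holds Reg2 and Reg3d, and Reg4 lies on chromosome 3 (chr3:98222156-98236748, plus strand). In the GENCODE annotation none of the 5 genes overlaps another gene. The transcripts of Reg3b and Reg3g share an identical run of at most 35 bases, and those of Reg3a share at most 24 bases with either. Whether reads of one were counted for another was not tested.

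The promoters of the 3 Reg3 genes are shown because their levels followed each other over the sums of 1 library and 1 cell class given below. Each run is the 120 bases before the RefSeq transcription start (GRCm38.p6), written 5′ to 3′ on the gene's own strand, and capitals mark the letters TATAAA, a common form of the TATA box. The windows are chr6:78370765-78370884 (plus strand) for Reg3b, chr6:78468875-78468994 (minus strand) for Reg3g and chr6:78380589-78380708 (plus strand) for Reg3a.
Reg3b: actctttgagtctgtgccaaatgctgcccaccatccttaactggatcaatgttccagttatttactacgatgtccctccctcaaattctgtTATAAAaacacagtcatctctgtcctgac
Reg3g: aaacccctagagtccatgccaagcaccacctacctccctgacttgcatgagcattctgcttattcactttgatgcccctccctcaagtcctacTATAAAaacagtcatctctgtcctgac
Reg3a: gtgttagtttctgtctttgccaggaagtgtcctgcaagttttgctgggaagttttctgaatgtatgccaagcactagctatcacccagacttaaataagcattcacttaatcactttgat
Over these 120 bases, 70.5% of the aligned positions were identical between Reg3b and Reg3g, which shared a run of 20 bases. Reg3a had 50% identity with Reg3b and 46.1% with Reg3g. TATAAA (searched on both strands over 250 bases) lay at −29 in Reg3b and at −27 and −161 in Reg3g, and it was not among the letters of the Reg3a or Reg4 window. Of 32851 promoters, 12.4% held it. The STAT motif TTCNNNGAA, on either strand, occurred in the Reg3b window (at −129) and in no other member's, and 7.02% of all promoters held it. These matches are letters in a window and show no binding.

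Reg3b had the highest level of the 5 members in enterocyte-like cells. It made up 3.87%, 7.96% and 6.55% of all UMIs in the enterocyte-like cells of sham 1, 2 and 3, and 4.97% and 4.90% in those of resection 1 and 2. Levels are given from here on as CPM, where 1% of the UMIs of a sum is 10000 CPM. The 3′ chemistry counts 1 molecule once whatever its length, so gene length does not enter the levels. Whether the genes were captured equally well was not tested, so levels of different genes are compared only roughly. The levels by class and library are shown in the plot of all 5 genes.

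**Figure D1:**
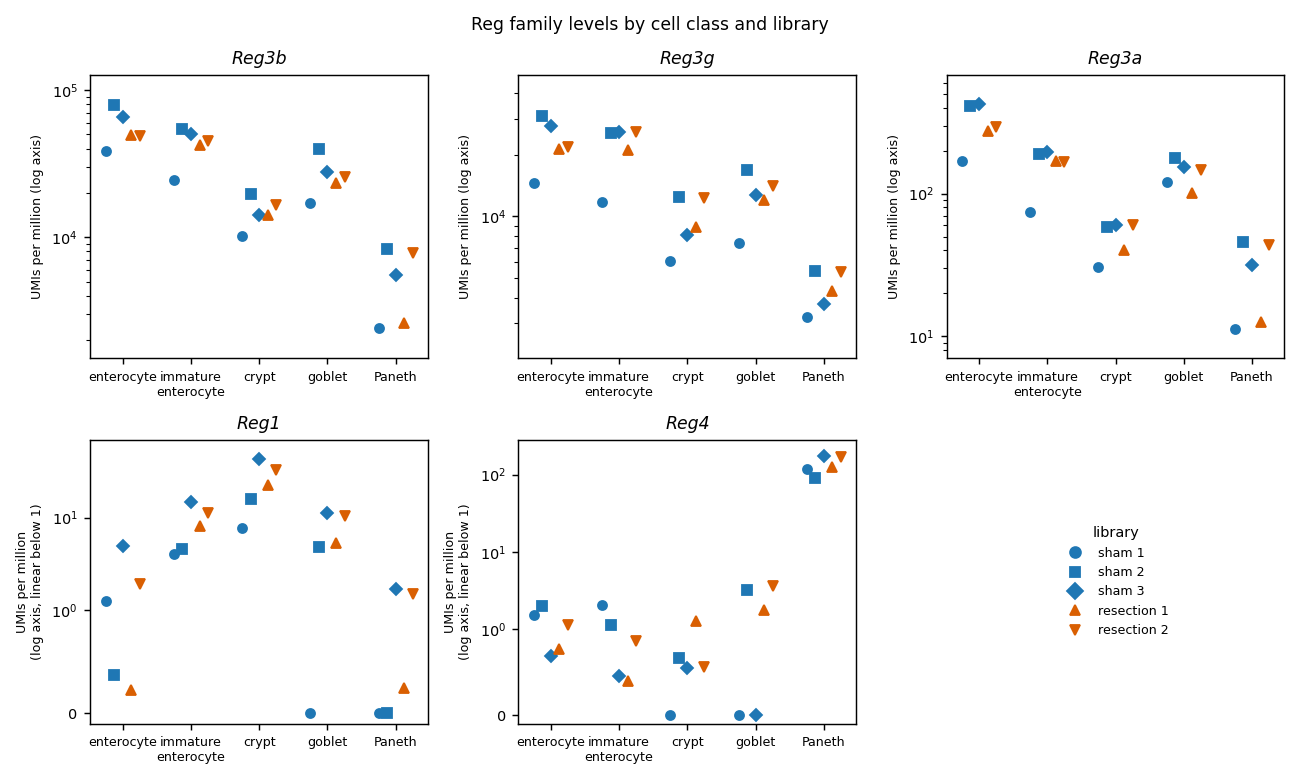
Level of each Reg gene (CPM, log axis, linear below 1 for Reg1 and Reg4) in 5 cell classes, 1 point per library (sham 1 to 3 blue, resection 1 and 2 orange). Reg3b, Reg3g and Reg3a were highest in enterocyte-like or immature enterocyte-like cells, Reg1 in crypt-like cells and Reg4 in Paneth-like cells, where it lay between 91.3 and 176 CPM.

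In enterocyte-like cells Reg3b was at 38680, 79585 and 65541 CPM in sham 1 to 3 and at 49692 and 49022 CPM in resection 1 and 2. In immature enterocyte-like cells it was at 24514, 54012 and 49938 CPM in the sham libraries and at 42278 and 44743 CPM after resection. In crypt-like cells it was at 10162, 19707 and 14126 CPM in sham and at 14214 and 16475 CPM in resection libraries. Every library had this same descending order, and the sham range held both resection values in each of these classes. Goblet-like cells, which make mucus, lay between 17207 and 39854 CPM. Paneth-like cells, the crypt cells that release defensins and lysozyme, were lowest, between 2405 and 8345 CPM.

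Reg3g, the closest relative of Reg3b in this set, followed it at a lower level. In enterocyte-like cells Reg3g was at 14564, 30828 and 27555 CPM in sham 1 to 3 and at 21349 and 21849 CPM in resection 1 and 2. In immature enterocyte-like cells the values were 11753, 25482 and 25857 CPM in sham and 21003 and 25701 CPM in resection libraries. The immature cells were below the enterocyte-like cells of their library in all libraries but resection 2. The crypt-like cells held 6032 to 12387 CPM of Reg3g and the Paneth-like cells 3241 to 5407 CPM.

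Reg3a, another secreted lectin of the group, was far lower. In enterocyte-like cells it was at 169, 410 and 427 CPM in sham 1 to 3 and at 275 and 291 CPM in resection 1 and 2. In immature enterocyte-like cells it lay between 75.0 and 196 CPM, and in crypt-like cells between 30.8 and 60.7 CPM. Sham 1 was the lowest library for all 3 Reg3 genes in enterocyte-like and in immature enterocyte-like cells.

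Reg1 ran the other way. In crypt-like cells, the class marked by cell cycle genes, it was at 7.70, 16.0 and 43.1 CPM in sham 1 to 3 and at 22.4 and 32.3 CPM in resection 1 and 2. In immature enterocyte-like cells it lay between 4.05 and 14.7 CPM, and in enterocyte-like cells between 0.230 and 4.90 CPM. The crypt-like cells were 8.48% of all cells and held 49.0% of the 718 Reg1 UMIs. Sham 3 was the highest library and sham 1 the lowest in crypt-like cells, and the sham range again held both resection values. The sham 1 value comes from 59 crypt-like cells and few UMIs.

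Reg4 was found almost wholly in Paneth-like cells. There it was at 119, 91.3 and 176 CPM in sham 1 to 3 and at 124 and 166 CPM in resection 1 and 2, and the groups overlapped. These cells were 5.89% of all cells and held 93.5% of the 2019 Reg4 UMIs. In enterocyte-like, immature, crypt-like and goblet-like cells Reg4 reached at most 3.64 CPM in any library.

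The classes were compared with the enterocyte-like cells of the same library by edgeR's quasi-likelihood test on summed counts, with the library as a block and Benjamini-Hochberg adjustment over all genes. Reg3b was 5.89-fold lower in crypt-like cells (log2 fold −2.56 ± 0.17 SE, adjusted p = 2.41e-09) and 1.67-fold lower in immature enterocyte-like cells (−0.74 ± 0.10, adjusted p = 3.57e-05). Reg3g was lower by a smaller factor, with −1.94 ± 0.17 in crypt-like cells (adjusted p = 4.12e-08) and −0.44 ± 0.10 in immature cells (adjusted p = 0.00179). Of the members called lower, Reg3a had the widest step, −3.30 ± 0.13 in crypt-like cells (adjusted p = 7.07e-12). Reg1 was 10.4-fold higher in crypt-like cells (3.38 ± 0.32, adjusted p = 1.13e-07) and 4.53-fold higher in immature cells (2.18 ± 0.33, adjusted p = 9.60e-05).

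In these comparisons 1 member was called higher and 3 lower of the 4 tested in crypt-like cells, where 37.6% of 10519 genes were called higher and 42.3% lower. Against the same cells, 1 member was called higher and 4 lower of 5 tested in immature enterocyte-like cells, with 34.2% of 10397 genes called higher and 35.4% lower. In goblet-like cells Reg1 was called higher (1.94 ± 0.46) and Reg3a, Reg3b and Reg3g lower (−1.44 to −1.17), where 24.5% of 9816 genes were called higher and 26.8% lower. A call alone therefore marks no member out, and the sizes carry the description. Of these, the goblet-like Reg1 value rests on 34 UMIs in goblet-like cells, with 0 CPM in the lowest sham library. The Reg4 value in immature cells rests on 17 UMIs there and 70 in enterocyte-like cells. With library totals unscaled the median of all genes moved to 0.57 in crypt-like, 0.35 in immature and 0.25 in goblet-like cells. The 3 members called lower and the 1 called higher in crypt-like cells kept their calls there, and so did those in goblet-like cells. In immature cells Reg3g moved to −0.09 (adjusted p = 0.444, edgeR) and Reg4, at −0.83 ± 0.34 with library totals scaled, to −0.50 (adjusted p = 0.213). The Reg4 call was also lost without each library in turn (−0.85 to −0.74).

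In Paneth-like cells Reg4 was 452-fold higher than in enterocyte-like cells (log2 fold 8.82 ± 0.24, edgeR adjusted p = 5.93e-27). Reg3b (−1.51 ± 0.31, adjusted p = 0.000123) and Reg3a (−1.53 ± 0.15, adjusted p = 1.07e-10) were called lower. Reg3g at −0.34 ± 0.28 was not called (adjusted p = 0.327). Of 9463 genes, 23.4% were called higher and 23.2% lower. These changes are relative to the median gene: a few secretory genes fill the Paneth-like profiles, and with unscaled totals the median of all genes lay at −2.07, Reg3g at −2.38 (adjusted p = 1.44e-09) and Reg4 at 6.84.

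UMIs of Reg3b were found in every class, including cells that should lack it. After each cell was thinned to 2000 UMIs, 100% of the T cell-like cells of every library still held a Reg3b UMI, as did 97.3 to 100% of the Paneth-like cells. In T cell-like cells, whose 10 markers summed to 12920 to 23564 CPM, Reg3b was at 29855, 47491 and 41589 CPM in sham 1 to 3 and at 36729 and 35688 CPM in resection 1 and 2. Shares of cells with a UMI therefore do not show expression of Reg3b or Reg3g. The levels were therefore set against the UMIs of 9 enterocyte marker genes, used as a tracer of enterocyte RNA. These 9 genes made up 4.63 to 7.74% of the UMIs of T cell-like cells and 5.85 to 10.6% of those of enterocyte-like cells.

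Per enterocyte marker UMI, T cell-like cells held 0.818 to 1.02 times the Reg3b of the enterocyte-like cells of their library, and goblet-like cells 0.822 to 1.10 times. In both classes Reg3b thus stood in about the same ratio to the tracer genes as in enterocyte-like cells. Crypt-like cells held 2.51 to 5.24 times as much Reg3b and 3.96 to 7.64 times as much Reg3g, and immature enterocyte-like cells 2.47 to 6.58 and 3.14 to 7.85 times. Paneth-like cells held 0.689 to 0.910 times the Reg3b but 1.15 to 3.53 times the Reg3g, with the 2 libraries of set A highest. All 5 libraries lay above 1 for both genes in crypt-like and immature cells, and for Reg3g but not for Reg3b in Paneth-like cells. The tracer genes made up 0.380 to 1.03% of the UMIs of crypt-like cells and 0.900 to 1.98% of those of immature cells, and the part of these low shares in the ratios was not tested.

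**Figure D2:**
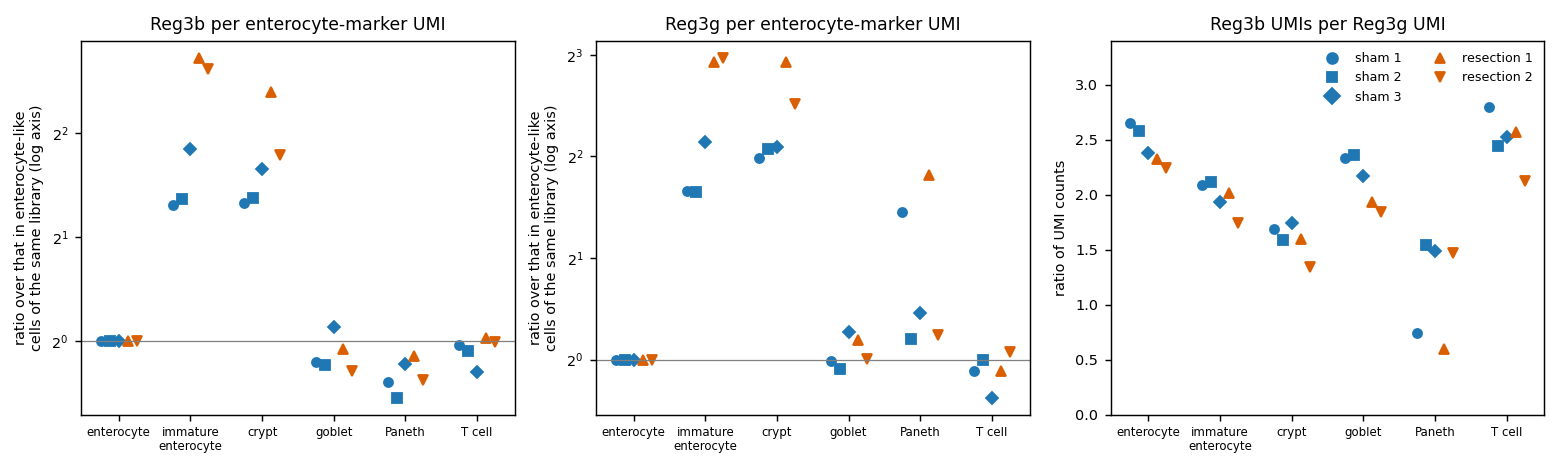
Left and middle, Reg3b and Reg3g UMIs per UMI of 9 enterocyte marker genes, divided by the same ratio in enterocyte-like cells of that library (log axis), and right, Reg3b UMIs per Reg3g UMI, where each point is 1 library and the grey line at 1 marks the enterocyte-like cells. The T cell-like points lie between 0.818 and 1.02 for Reg3b, and the ratio of Reg3b to Reg3g is lower in Paneth-like than in enterocyte-like cells in every library.

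The ratio of Reg3b to Reg3g UMIs was 2.24 to 2.66 in enterocyte-like cells, 1.74 to 2.12 in immature cells and 1.34 to 1.75 in crypt-like cells. In T cell-like cells it was 2.12 to 2.80, overlapping the enterocyte-like range. In Paneth-like cells it was 0.742 in sham 1 and 0.600 in resection 1, below every other class, and 1.47 to 1.54 in the libraries of set B, within the crypt-like range. In set A the Paneth-like cells thus held more Reg3g than Reg3b. The Paneth-like cells of set A were also the deepest, with a median of 16418 UMIs in sham 1 and 18692 in resection 1 against 5859 to 9940 in set B.

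Within a class, cells with more Reg3b had more Reg3g. Spearman's correlation of their shares over the cells of 1 library was 0.772 to 0.876 in enterocyte-like cells (702 to 4385 cells) and 0.855 to 0.889 in crypt-like cells (59 to 534 cells). The correlation was lower in Paneth-like cells, 0.231 and 0.245 in set A and 0.523 to 0.675 in set B. Cells of a library share its depth and its free RNA, so these values are descriptions. In enterocyte-like cells the Reg3b share of a cell ran from 2.09% at percentile 10 to 5.98% at percentile 90 in sham 1, and from 0.894% to 9.08% in resection 2. Percentile 10 was at 0.957% and 0.894% in the resection libraries and at 2.09 to 3.23% in the 3 sham libraries. How many other genes have the groups apart in this measure was not computed, so it is not read as a surgery difference.

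For the rarer members the share of cells with a UMI can be read, since classes that should lack them were near 0. Thinned to 2000 UMIs per cell, 14.4 to 25.2% of Paneth-like cells held a Reg4 UMI (exact 95% interval 10.4 to 19.3% in sham 2, the lowest, and 17.8 to 33.8% in sham 3, the highest). Among thinned crypt-like cells 0 to 0.230% held one, and among T cell-like cells at most 2.01%. Median depth before thinning was 5859 to 18692 UMIs in Paneth-like and 3970.5 to 6441 UMIs in T cell-like cells. A Reg1 UMI was found in 1.69 to 6.91% of thinned crypt-like cells and in 0.0426 to 0.899% of enterocyte-like cells. A Reg3a UMI was found in 25.9 to 51.0% of thinned enterocyte-like cells, but also in 16.7 to 32.1% of T cell-like cells, and the ranges overlap, so this share is not read as expression. The intervals cover counting error only.

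Reg4 is known from enteroendocrine cells, and few were captured. Cells with at least 4 of 12 enteroendocrine markers numbered 7, and 2 of them held 18 Reg4 UMIs, 17 of them in 1 cell. That cell had fallen in the T cell-like cluster of resection 2. Of the 115 cells with at least 5 Reg4 UMIs, 114 were Paneth-like.

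Genes with patterns like those of the members were ranked by Pearson's r of log2(CPM + 10) over 28 sums of 1 library and 1 class, among 4638 genes with a mean of at least 20 CPM. Among the closest for Reg3b were Plac8, Ccl25, Dhrs11 and Tmem59 (r = 0.97 each), and its r with Reg3g was 0.97. Ccl25 encodes the chemokine of the small intestinal epithelium that draws T cells. For Reg3g they were Slc35b1 (0.96), Fam132a (0.95), Tmem59 (0.95) and Cmbl (0.95), and among those for Reg3a Cox7a1, Tm4sf5 and Sult2b1 (0.97 each). Among those for Reg4 were Ang4 (0.97), a secreted Paneth cell ribonuclease, Gm7861 (0.96) and Pnliprp2 (0.96). The sums share libraries and depth, so these are descriptions without a test. Reg1, with a mean of 7.65 CPM, was below the minimum.

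To place the members along the villus, the enterocyte-like and immature enterocyte-like cells of each library were ranked by 6 upper villus genes (Ada, Nt5e, Slc28a2, Pmp22, Klf4 and Krt20) less 6 lower villus genes (Gsdmc2, Gsdmc3, Gsdmc4, Ckmt1, Fgfbp1 and Prss32) and split into 5 zones of equal cell number, zone 1 lowest and zone 5 highest. The zones are ranges of a score, not cell types. From 10.1 to 12.7% of the cells of a library lay within 0.1 of the cut of zone 1. All 6 upper villus genes were called in zone 5 and 5 of the 6 lower villus genes in zone 1, as the ranking sets, and Ckmt1 was not.

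The 3 Reg3 genes peaked in zones 2 to 4 of the villus score in every library. In sham libraries Reg3b went from 27290, 57812 and 51927 CPM in zone 1 to 34975, 60781 and 47691 CPM in zone 5, with peaks of 39026, 84524 and 70476 CPM in zones 3, 3 and 2. In resection libraries Reg3b went from 44981 and 52168 CPM in zone 1 to peaks of 61663 and 63711 CPM in zone 2 and to 26062 and 20471 CPM in zone 5. In every library zone 5 was under the peak. Zone 2 exceeded zone 5 by a log2 fold of 0.63 ± 0.17 for Reg3b (edgeR adjusted p = 0.00709), 0.70 ± 0.15 for Reg3g (adjusted p = 0.000887) and 0.52 ± 0.19 for Reg3a (adjusted p = 0.0309). With Reg1, which exceeded it by 2.05 ± 0.48 (adjusted p = 0.00231), these were 4 of the 4 members tested, where 24.8% of 9217 genes were called higher and 24.9% lower. Zone 2 was chosen for it after the levels had been seen. The libraries were not alike: in sham 1 Reg3a was at 134 CPM in zone 2 and 166 CPM in zone 5, the other way round, and Reg3b at 35556 and 34975 CPM. The difference between zone 2 and zone 5 was larger after resection for all 3 Reg3 genes, as the interaction given further on measures.

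Between zone 1 and zone 5, Reg1 was the 1 member called of 4 tested. Reg1 was at 5.11, 3.53 and 16.3 CPM in zone 1 of sham 1 to 3 and at 6.02 and 8.34 CPM in that of resection 1 and 2, the highest of the 5 zones in every library. In zone 5 sham 1 to 3 had 0.988, 0 and 2.34 CPM and the resection libraries 0 and 0.889 CPM. These zone 5 values rest on few UMIs, too few for a ratio to zone 1 in sham 1, sham 2 and resection 1. The log2 fold of Reg1 was 3.0 ± 0.41 (edgeR adjusted p = 1.76e-05). Reg3a (−0.45 ± 0.21, adjusted p = 0.0711), Reg3b (0.04 ± 0.21, adjusted p = 0.879) and Reg3g (0.28 ± 0.17, adjusted p = 0.166) were not called. Of 9741 genes 33.3% were called higher and 32.6% lower, and with unscaled totals the median of all genes lay at 0.35. Reg3a passed in 6 of 16 alternatives, among them those without resection 2 (−0.72) and without resection 1 (−0.57).

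**Figure D3:**
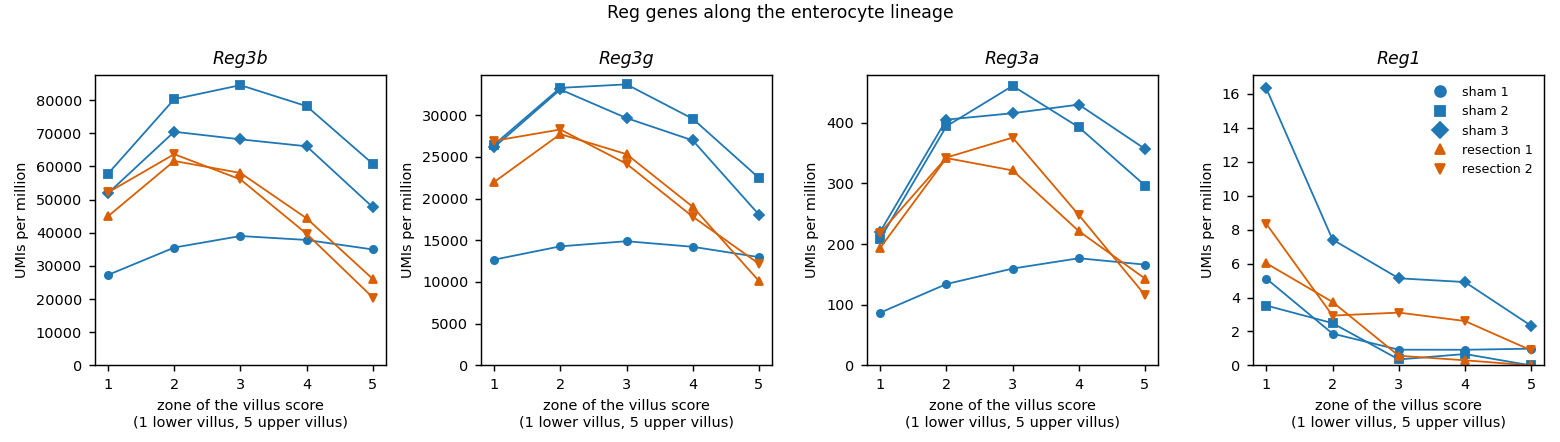
Levels (CPM, linear axis from 0) of Reg3b, Reg3g, Reg3a and Reg1 in 5 zones of the enterocyte lineage, ranked from lower villus (1) to upper villus (5) within each library, 1 line per library. In zone 5 both resection libraries (orange) lie under all 3 sham libraries (blue) for the Reg3 genes, and Reg1 is highest in zone 1 of every library. Many other genes had the groups apart in this direction in zone 5, and their share is given in the text.

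Whether resection changed the members was asked class by class. In enterocyte-like cells, and so in the zones of the villus score, this compares cells that mostly lay in different clusters. In enterocyte-like cells the edgeR log2 folds of resection against sham were −0.39 ± 0.51 SE for Reg3b, −0.25 ± 0.50 for Reg3g, −0.33 ± 0.51 for Reg3a, −1.02 ± 1.08 for Reg1 and −0.53 ± 0.58 for Reg4 (adjusted p = 0.997 for each). None of the 5 members was called, and 0% of 10356 genes were called in either direction. There were 515 genes at an unadjusted p under 0.05, and DESeq2 called 49 genes higher and 19 lower, no member among them. The groups overlapped for all 5 members, and 7.13% of genes had both resection libraries below all sham libraries and 8.17% above.

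Within the sets the 3 Reg3 genes went in opposite directions. In set A, Reg3b was 0.53 higher on the log2 scale after resection, Reg3g 0.72 and Reg3a 0.87. In set B, Reg3b was −0.59, Reg3g −0.44 and Reg3a −0.55. The level of sham 1 lies below and those of sham 2 and sham 3 above the resection libraries for each of the 3 genes, so the sham range held both resection values.

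No member was called in any other class by edgeR without the replicate number in the fit. Over the immature enterocyte-like, crypt-like, goblet-like and Paneth-like cells, 0% of 9818, 9561 and 6376 genes were called in the first 3, and 0.0303% of 6593 genes higher in Paneth-like cells. At an unadjusted p under 0.05 there were 152, 125, 182 and 126 genes. In crypt-like cells Reg1 had a log2 fold of 0.01 ± 0.53 (edgeR adjusted p = 0.9998), with 1.5 in set A and 0.31 in set B. The set A value sets 1 library against 1 and rests on few UMIs, since sham 1 had 59 crypt-like cells with Reg1 at 7.70 CPM. In Paneth-like cells Reg4 had 0.06 ± 0.44 (adjusted p = 1.0), with 0.22 and −0.0040 in the sets. Over all epithelial cells together Reg4 was at −1.0 ± 0.76 (adjusted p = 1.0) and at 0.15 without sham 1, whose cells were 17.9% Paneth-like against 4.45 to 7.10% in the other libraries. In sums over all cells, fewer cells of a type and less RNA per cell cannot be told apart. Differences of the surgery effect between immature or Paneth-like and enterocyte-like cells were called for no member either, with 0.491% of 10397 genes called higher and 0.385% lower in the former and 0.0211% of 9463 lower in the latter.

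Along the villus score the groups parted at the top. In zone 5 Reg3b was at 34975, 60781 and 47691 CPM in sham 1 to 3 and at 26062 and 20471 CPM in resection 1 and 2. Reg3g was at 12978, 22464 and 18067 CPM in sham and at 10121 and 12183 CPM in resection libraries. Reg3a was at 166, 296 and 357 CPM in sham and at 143 and 116 CPM in resection libraries. For all 3 genes both resection libraries lay under all sham libraries in zone 5, and in none of the other 4 zones did they. Of 8204 genes 10.4% had the groups apart in this direction in zone 5, so the absence of overlap alone marks none of them out.

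Tested zone by zone with edgeR, resection against sham gave no call for a member, with 0.0112% of genes called higher in zone 2, 0.0227% in zone 3 and 0.0244% in zone 5, and none lower in any zone. The log2 folds of Reg3b were 0.01, −0.06, −0.23, −0.59 and −1.10 from zone 1 to zone 5. Those of Reg3a were 0.17, 0.05, −0.06, −0.56 and −1.15, and those of Reg3g 0.10, −0.01, −0.15, −0.41 and −0.71. In zone 5 the edgeR adjusted p was 0.570 for Reg3b (unadjusted 0.0331), 0.535 for Reg3a (unadjusted 0.0267) and 0.776 for Reg3g. For each gene the value was nearest 0 in zones 1 to 3 and lowest in zone 5, with standard errors of 0.43 to 0.57 over the 5 zones.

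**Figure D4:**
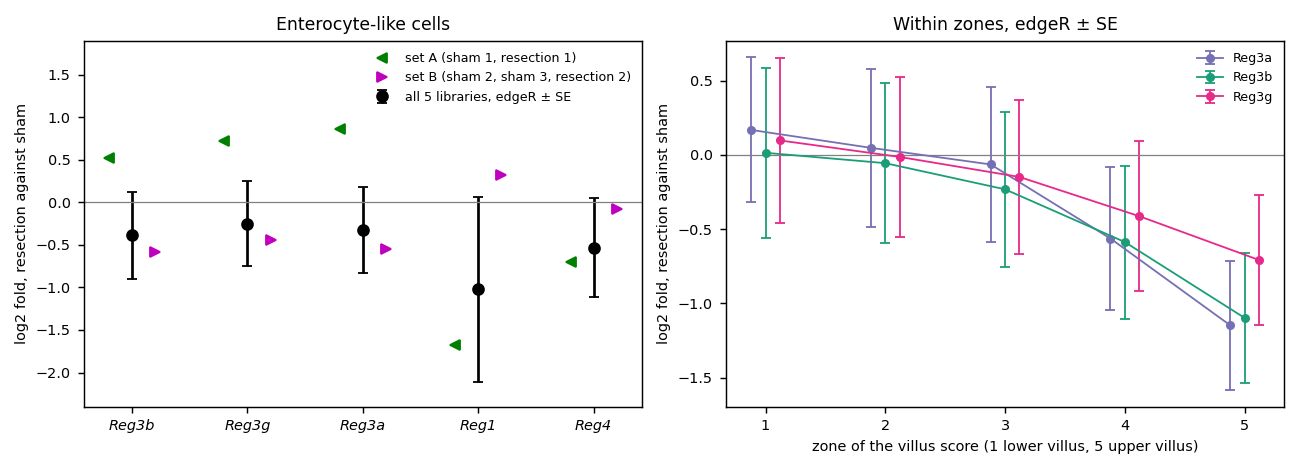
Log2 fold of resection against sham. Left, the 5 members in enterocyte-like cells over all 5 libraries (black, edgeR ± SE) and within set A and set B, whose directions for the Reg3 genes are opposite. Right, Reg3a, Reg3b and Reg3g in each zone of the villus score (edgeR ± SE), from near 0 in zone 1 to −1.15, −1.10 and −0.71 in zone 5.

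The change from zone 1 to zone 5 within a library sets aside the overall level of each library. Reg3b in zone 5 was 1.28, 1.05 and 0.918 times its level in zone 1 in sham 1 to 3, and 0.579 and 0.392 times in resection 1 and 2. For Reg3g the same ratio was 1.02, 0.849 and 0.691 in sham and 0.461 and 0.453 in resection libraries. For Reg3a it was 1.91, 1.42 and 1.62 in sham and 0.738 and 0.530 in resection libraries. Reg3a was thus higher in zone 5 than in zone 1 of every sham library and lower in both resection libraries. For all 3 genes the groups did not overlap in this step, as for 16.4% of 9741 genes in the same direction. The resection library had the lower ratio for all 3 genes within set A and within set B, but from different levels. Zone 1 of sham 1 and resection 1 had Reg3b at 27290 and 44981 CPM and Reg3a at 86.9 and 194 CPM. Zone 5 of these libraries had Reg3b at 34975 and 26062 CPM and Reg3a at 166 and 143 CPM. The step of set A thus includes a higher zone 1 after resection. In set B, zone 1 of resection 2 lay between those of sham 2 and sham 3 for Reg3b and Reg3a.

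An interaction of surgery and villus position, with the library as a block, tested this difference, and was added after the levels had been seen. From zone 1 to zone 5, Reg3a changed by −1.30 ± 0.21 on the log2 scale more after resection than after sham (edgeR adjusted p = 0.00224), and Reg3b by −1.10 ± 0.24 (adjusted p = 0.0153). Reg3g, at −0.82 ± 0.22, was not called (adjusted p = 0.0548), nor was Reg1 (−0.75 ± 0.98, adjusted p = 0.863). Of all 9741 genes, 1.6% were called lower and 0.308% higher, beside these 2 calls of 4 members tested. Reg3a and Reg3b followed each other over the library and class sums (Pearson's r = 0.95), so these are not 2 independent calls. The members were chosen with earlier results of these data known, so the shares are given for scale only. Against zone 2 in place of zone 1, all 3 Reg3 genes were called: Reg3a at −1.22 ± 0.18 (adjusted p = 0.000399), Reg3b at −1.08 ± 0.16 (adjusted p = 0.000483) and Reg3g at −0.78 ± 0.17 (adjusted p = 0.0109), with 1.91% of 9217 genes called lower and 0.347% higher. Against zone 3 they were at −1.10 ± 0.16, −0.91 ± 0.12 and −0.64 ± 0.14 and again all called, with 0.967% of 9001 genes called lower and 0.111% higher. Against zone 4 Reg3a (−0.58 ± 0.12) and Reg3b (−0.54 ± 0.09) were called and Reg3g (−0.35 ± 0.11) was not, with 0.179% of 8932 genes called lower. The interactions against zones 2, 3 and 4 use the same zone 5 sums as the first, so they are not separate support for it.

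The calls depended on how the cells were ranked and on single libraries, while the sign did not change for the 3 genes in any of 18 alternatives. Reg3b was not called without sham 1 (−1.0, adjusted p = 0.136) or without resection 2 (−0.78, adjusted p = 0.211), where Reg3a kept its call. Neither gene was called with doublets kept (Reg3b −0.86, Reg3a −1.07) or with clusters at resolution 0.5 (Reg3b −0.90, Reg3a −1.11). Ranking by the upper villus genes alone left Reg3a called (−1.10, adjusted p = 0.0167) and Reg3b not (−0.92, adjusted p = 0.0664). With cuts common to all libraries Reg3a kept its call (−0.82, adjusted p = 0.0186) and Reg3b did not (−0.64, adjusted p = 0.153).

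The upper villus score itself differed between the groups. Its cut for zone 5 was at 0.153, 0.314 and 0.135 in sham 1 to 3 and at 0.424 and 0.380 in resection 1 and 2. The 6 upper villus genes summed to 1848, 2700 and 2435 CPM in zone 5 of the sham libraries and to 2806 and 3034 CPM in that of the resection libraries. With common cuts, the highest range held 95, 562 and 201 cells of sham 1 to 3 and 791 and 1213 cells of resection 1 and 2. In that range Reg3b was at 31773, 59507 and 38424 CPM in sham and at 28517 and 22304 CPM in resection libraries. Reg3a was at 149, 289 and 310 CPM in sham and at 146 and 123 CPM in resection libraries. For Reg3a, sham 1 and resection 1 were thus nearly level. The groups did not overlap for Reg3b or Reg3a, and the share of all genes apart under these cuts was not computed. Reg3g did overlap there, at 11958 to 22065 CPM in sham and at 11255 and 12716 CPM in resection libraries. Median UMIs per cell in zone 5 were 3452 to 5214 in sham and 3843 and 4728 in resection libraries. How far a higher villus position of the ranked resection cells accounts for the lower Reg3 levels was not tested beyond these cuts.

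Paneth cell genes, which enterocytes should lack, were read along the same score. The 5 alpha-defensins listed were lower in zone 1 than in zone 5, by log2 folds of −0.78 to −0.67. In the interaction of surgery and villus position the same 5 genes ranged from −0.26 to 0.16 and none was called.

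Genes around the family were read from 3 lists. Of 18 genes of IL-22 signalling, 15 were tested in enterocyte-like cells, and resection against sham called none, with a median log2 fold of −0.37 beside −0.02 for all genes tested. Its largest values were Duoxa2, the maturation factor of the oxidase DUOX2 (−2.22 ± 1.31, with sham 3 at 580 CPM and the other libraries at 16.1 to 84.7 CPM), and the serum amyloid gene Saa3 (−1.87 ± 0.86). Of 15 genes of bacterial sensing, 11 were tested and none called (median −0.45), led by Tlr2 (−1.31 ± 1.32) and Nod1 (−0.84 ± 0.68), both under 5 CPM. Of 18 other secreted defence proteins, 15 were tested and none called (median −0.70), led by lysozyme Lyz1 (−0.95 ± 0.49) and the lectin Itln1 (−0.94 ± 0.59), both Paneth cell products that reached 364 and 276 CPM in enterocyte-like cells. The adjusted p was 0.997 for each of these 6 genes by edgeR. The Paneth marker list of 10 genes summed to 1584 to 7163 CPM in the enterocyte-like cells of sham and to 2713 and 2795 CPM in those of resection libraries. Of the villus lists, Ada (2.56 ± 0.62) and Nt5e (2.43 ± 0.74) led the upper list and Fgfbp1 (−1.67 ± 0.44) and Gsdmc4 (−1.47 ± 0.59) the lower, none of them called.

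Along the villus score, 1 of 14 tested IL-22 signalling genes was called higher in zone 1 and 8 lower, with a median of −0.78 beside 0.02 for all genes, where 33.3% of all genes tested were called higher and 32.6% lower. Stat3, the transcription factor of the pathway, was at −1.16 ± 0.10, Saa1 at −2.77 ± 0.13 and the nitric oxide synthase Nos2 at −2.88 ± 0.29. In the interaction of surgery and villus position 1 of these 14 was called, Nos2 (−1.64 ± 0.33, adjusted p = 0.0109), and of 15 other secreted defence proteins 1 was called, Lypd8 (−2.02 ± 0.23, adjusted p = 7.43e-05), a secreted protein that binds flagella. Both were called lower, as Reg3a and Reg3b were, and as 1.6% of 9741 genes were. From zone 1 to zone 5 Nos2 rose in every library. In zone 5 it was at 95.9, 78.5 and 435 CPM in sham and at 43.5 and 95.5 CPM in resection libraries, so the groups overlapped. Lypd8 was there at 1385, 1248 and 1386 CPM in sham and at 220 and 391 CPM in resection libraries. None of 9 bacterial sensing genes was called in the interaction (median −0.61), and of the 6 lower villus genes, which the ranking uses, Prss32 was (−1.35 ± 0.22, adjusted p = 0.00236).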

How the data were processed

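Single-cell libraries were made with droplet 3′ chemistry and aligned to mm10 (GRCm38), per the submitters' processing notes. The authors deposited raw UMI counts per gene and cell for each library. The members and gene lists were chosen with earlier results of these data known.

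Cells with at least 500 genes and at most 20% mitochondrial UMIs were kept, and predicted doublets (0.8% per 1000 cells, 720 in all) were removed. Clusters came from 2000 variable genes, 30 components, 20 neighbours and Leiden resolution 1.0 (scanpy 1.11.5), and were named from marker lists. Counts were summed per library and class (at least 20 cells) and tested with edgeR 4.0.16 (quasi-likelihood, TMM scaling, Benjamini-Hochberg threshold 0.05), with DESeq2 1.42.0 as an alternative. Class and villus comparisons had the library as a block. The surgery and class fits were tried on counts simulated with 1 fixed spread for enterocyte-like and Paneth-like sums. The interaction of surgery and villus position was not tried in this way. Named genes were all members, the 4 genes most correlated with each (some are not reported here), list genes past the threshold and otherwise the 2 with the largest change per list in enterocyte-like cells. Of the genes past the threshold along the villus score, only examples are named. Replicate numbers are shared by sham 1 and resection 1 and by sham 2 and resection 2, and whether they pair animals is not stated in the labels.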

Additional observations from a re-analysis of the deposited data

Results flagged for a closer look

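A test of the difference itself, an interaction of surgery and villus position added after the levels had been seen, found that the surgery effect on 2 members differed between zone 5 and zone 1 of the villus score. For Reg3a the difference was −1.30 ± 0.21 on the log2 scale (edgeR adjusted p = 0.00224), and the step from zone 1 to zone 5 was lower in 2 of 2 resection libraries than in any sham library. For Reg3b it was −1.10 ± 0.24 (edgeR adjusted p = 0.0153), again lower in 2 of 2 resection libraries. In set A the step included a higher zone 1 in resection 1 than in sham 1 for both genes. Groups that do not overlap in this direction were found for 16.4% of 9741 genes, and 1.6% were called lower by the interaction. Reg3b lost its call in 6 of 18 alternatives, and both genes lost it with doublets kept or at resolution 0.5. The cause was not tested.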

How the results depend on the processing

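With 3 sham and 2 resection libraries in 2 sets, differences between the groups were limited by the spread among sham libraries. Of the resection changes in enterocyte-like cells, Reg3a moved to 0.038 and Reg3g to 0.033 with the set as a term. Leaving out 1 library gave −3.43 to 0.79 for Reg1, −0.58 to 0.015 for Reg3g and −0.99 to 0.012 for Reg4. It gave −0.46 to 1.0 for Reg1 in crypt-like cells, −0.18 to 0.35 for Reg4 in Paneth-like cells and −1.47 to 0.15 for Reg4 over all epithelial cells. Reg4 in Paneth-like cells was −0.0070 with expression scaled within libraries and −0.043 with doublets kept. Reg3b in zone 1 against zone 5 was −0.082 at resolution 0.5, −0.073 with doublets kept, −0.17 by the lower villus genes alone and −0.20 to 0.23 without 1 library. The cause was not tested.

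The number of Reg genes called between these zones was 1, and 2 without TMM scaling, at resolution 0.5, with doublets kept, by the lower villus genes alone or with common cuts, 3 without a filter on low counts and 1 to 2 without 1 library. In immature against enterocyte-like cells it was 3 in place of 5 without TMM scaling. In the interaction of surgery and villus position it was 2, and 0 at resolution 0.5 or with doublets kept, 1 by the upper villus genes alone or with common cuts, and 1 to 3 without 1 library. There 30 genes were called higher and 156 lower, and 5 to 95 and 15 to 217 over the alternatives. Resection against sham in enterocyte-like cells called 133 genes higher and 53 lower without the filter and 18 and 2 with the set as a term. Without TMM scaling, calls higher and lower were 5867 and 2608 in crypt-like cells (3954 and 4451 with it), 5351 and 2274 in immature cells (3557 and 3678), 3478 and 1427 in goblet-like cells (2403 and 2627), 415 and 8519 in Paneth-like cells (2219 and 2193) and 4552 and 2134 between these zones (3240 and 3176). The crypt-like class gave no value at resolution 0.5 or with doublets kept, nor the goblet-like class with a 15% mitochondrial ceiling.

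With the replicate number as a block, resection changes in enterocyte-like cells were 0.75 for Reg1, 0.13 for Reg3a and 0.058 for Reg3g, and 86 genes were called higher and 77 lower. The block called 1 Reg gene in immature cells, Reg1 (1.19, edgeR adjusted p = 0.0393), and 2 over all epithelial cells, Reg1 (1.26, adjusted p = 0.0218) and Reg4 (−1.22, adjusted p = 0.0190), against 0 without it. The sham library with no same-numbered resection library adds nothing to these resection changes, which rest on 2 pairs. So few pairs leave little to measure the spread between libraries, and the labels state no pairing. The block's calls are therefore not read as resection effects. In the interaction the block gave −1.31 for Reg3a, −1.20 for Reg3b and −0.94 for Reg3g, which was then called (edgeR adjusted p = 0.0267). Same-numbered libraries correlated at 0.19 to 0.65 over 2 pairs, and the samples share only a number. In enterocyte-like cells sham 3 and resection 2, whose numbers differ, correlated at 0.50, above sham 2 and resection 2 at 0.19. With 2 resection libraries, the r of a sham library with 1 of them is the negative of that with the other. These values therefore cannot show whether the libraries are paired.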
